A study of Rattus norvegicus with 12 samples.

Results

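The genes described are those of the extracellular matrix that encode collagens, laminins and their partners, matrix glycoproteins, the proteases that cut the matrix, the inhibitors of those proteases and the lysyl oxidases. They were chosen by a rule on gene symbols that uses no measured value, although earlier results of these data were known when it was written, and came to 102 genes on 142 probe sets, of 14218 genes on an array of 31099 probe sets. Where a gene had several probe sets, the one with the largest mean log2 signal stood for it. RNA was measured on 12 Affymetrix RAE230 2.0 arrays, 1 per rat, from 6 young and 6 aged male Fischer 344 rats, an inbred strain used in research on aging. By the labels the young rats were 3 to 5 months old and the aged rats 21 to 23 months old. Sample titles and methods name parietal cortex, whereas the tissue field names frontal cortex. All 12 rats, young and aged alike, were housed singly, carried an implanted transmitter for brain and muscle activity, had been trained in the Morris water maze, a spatial memory task, and were killed after its last trial. No untrained or unimplanted group was therefore part of the comparison, and the 6 arrays per age were from the first animals entered. The question of the comparison was which matrix genes differed in level between young and aged cortex.

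Values are signal intensities on a linear scale, scaled so that the trimmed mean of every array was 500.1. A signal of 19.7, or 4.3 on the log2 scale, served as the cutoff for a detected gene, and a gene was tested when it exceeded the cutoff on at least 3 arrays. Of all genes, 13253 were tested, and of the 102 matrix genes 97. The 5 left out, Col4a6, Col20a1, Mmp7, Mmp10 and Mmp13, exceeded the cutoff on 0 to 2 arrays. A total of 71 matrix genes exceeded it on all 12 arrays. A further 10 of those tested exceeded it on 3 to 6 arrays, and in 7 of these more aged than young arrays were above, so these genes could enter the test through the aged group. Between 83.3% and 87.1% of probe sets per array lay above the cutoff. The mean correlation of an array with the others was lowest for aged rat 2, at 0.9582, and aged rat 6, at 0.9616, and between 0.963 and 0.9669 for the rest. The submitters' sample codes fell into a lower number series of 7 rats (young rats 1 to 3 and aged rats 1 to 4) and a higher series of 5 rats (young rats 4 to 6 and aged rats 5 and 6). Of 13 neuronal markers none was at or below the cutoff in every rat, and their summed signal was 61865 to 76920 in young and 61383 to 67167 in aged rats. Each sample is cortical tissue with many cell types, in which fewer cells of a type and less RNA per cell cannot be told apart.

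The extracellular matrix of the adult brain holds little of the fibrous collagen found in skin or tendon. Collagens and laminins are concentrated in the basement membranes around blood vessels and beneath the meninges, where type IV collagen and laminin form separate sheets that nidogen and perlecan tie together. Fibrillar collagens, made largely by fibroblasts and mural cells, lie in the meninges and the walls of larger vessels. Matrix metalloproteinases and ADAMTS proteases cleave these proteins, TIMP proteins block the metalloproteinases, and lysyl oxidases cross-link collagen and elastin.

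None of the 97 matrix genes differed between aged and young cortex at an adjusted p under 0.05 (limma, Benjamini-Hochberg over 13253 genes). Over all genes 7 did, 0.0528%. At an unadjusted p up to 0.01, the threshold of the methods, 5 matrix genes (5.15%) differed, beside 2.52% of all genes. Col5a2 and Lama5 were higher in the aged group, a direction in which 1.92% of all genes passed, and Col4a5, Emid1 and Lum were lower, where 0.604% passed. Emid1 is listed singly in the symbol rule and is named in the study itself, so its place among the 5 is not independent of these data. At an unadjusted p up to 0.05 the count was 13 (13.4%), beside 9.11% of all genes. Of the 13, 7 were higher with age, beside 6.49% of all genes, and 6 were lower, beside 2.62%. Under quantile normalization 3 were higher and 9 lower, beside 4.44% and 3.55% of all genes, and with arrays centred on their medians 2 and 8, beside 3.12% and 6.67%. The signals of the young and aged rats overlapped for every matrix gene. Over all genes 0.777% had groups without overlap, so a count of 0 among 97 is near that share. Of the 97 genes, 56 had a higher and 41 a lower mean in the aged group, a balance near that of all genes, 7545 higher and 5708 lower. Their median log2 fold change was 0.03, against 0.02 over all genes, which were brighter in general. In 4 equal bins of all genes by mean signal, from dim to bright, there were 57, 26, 10 and 4 matrix genes. Their medians were 0.03, 0.03, 0.07 and 0.06, against 0.16, 0.06, 0.01 and -0.02 for all genes of the same bins. With the arrays normalized by quantiles or centred on their medians, 45 of the 97 were higher and 52 lower in either case, so the balance turned with the scaling. All genes moved too, to 6733 higher and 6520 lower under quantile normalization and 5014 and 8239 under median centring. Without aged rat 6, 3 genes were higher at an unadjusted p up to 0.05 and 5 lower, beside 5.01% and 2.9% of all genes. Without aged rats 2 and 6 together, the counts were 6 and 8, beside 5.89% and 3.4%.

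**Figure D1:**
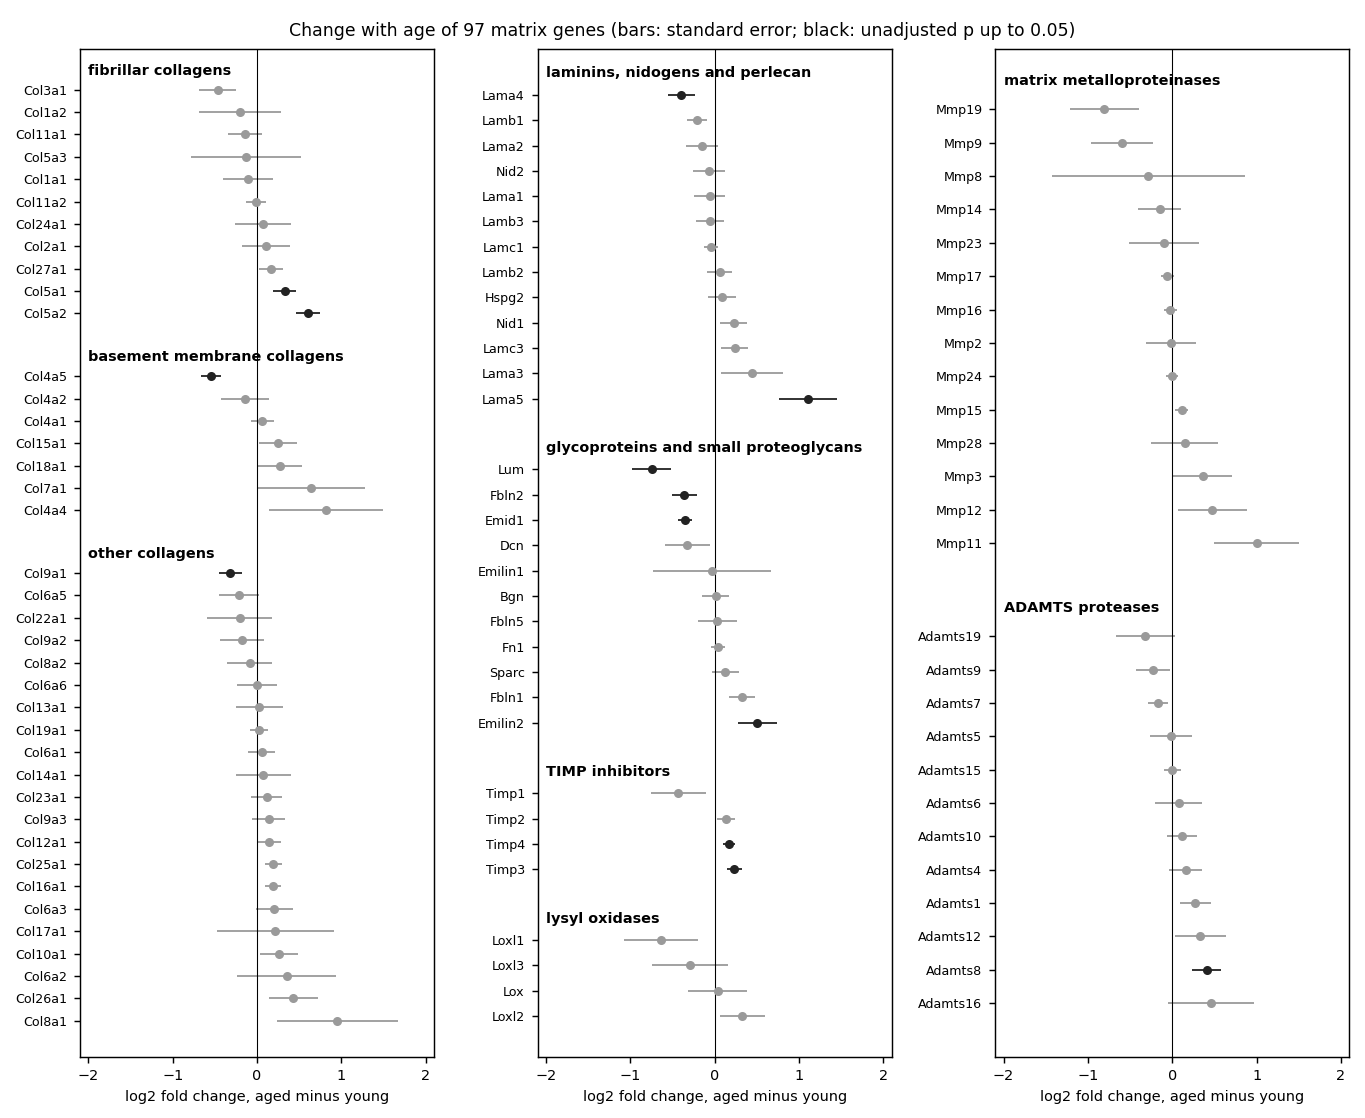
Log2 fold change, aged minus young, of the 97 matrix genes tested, arranged by role and ordered by value within a role. Points are limma estimates over 6 young and 6 aged rats, bars are their standard errors, and black marks the 13 genes with an unadjusted p up to 0.05, which are spread over 7 of the 9 roles and lie on both sides of 0.

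Among the 11 fibrillar collagens, which build the tensile fibres of connective tissue, 5 were higher and 6 lower in aged cortex, with a median of -0.01 on the log2 scale. Col5a2 and Col5a1 stood at the upper end and Col3a1 at the lower end, while the third type V chain, Col5a3, was at -0.13 (SE 0.65). Col5a2 encodes a chain of type V collagen, which sits inside type I collagen fibrils and sets their diameter. Its signal was lowest at 138, with a median of 197 and a highest value of 237, in the young rats. In the aged rats these values were 220, 290 and 375. Thus 5 of 6 aged rats lay above the highest young rat. The group means were 192 ± 32.7 and 293 ± 53.7 (SD, n = 6 each), a 1.52-fold higher signal in the aged group. On the log2 scale the change was 0.61 (SE 0.15), with an unadjusted p of 0.00139 and an adjusted p of 0.219 (limma). The second probe set of Col5a2 gave 0.55 (unadjusted p 0.00193).

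Col5a1, the partner chain of Col5a2 in type V collagen, ran from 126 to 176 in young rats (median 153) and from 144 to 258 in aged rats (median 178). The groups overlapped, and 3 aged rats exceeded the highest young rat. The log2 fold change was 0.33 (SE 0.14), with an unadjusted p of 0.0394 and an adjusted p of 0.522 (limma). The log2 fold change was 0.27 (unadjusted p 0.0629) under quantile normalization. The second Col5a1 probe set gave 0.65 (unadjusted p 0.0126). Without aged rat 6 the log2 fold change of Col5a1 was 0.24 and its unadjusted p 0.0841.

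Col3a1, the type III collagen of vessel walls and soft tissue, was measured at 79.2 to 188 in young rats (median 120) and at 72.8 to 117 in aged rats (median 84.0). Its log2 fold change was -0.47 (SE 0.22), with an unadjusted p of 0.0571, so the lower mean of the aged group was not past the threshold. It passed in 7 of 26 alternatives, among them quantile normalization (-0.56, unadjusted p 0.0264) and median centring (-0.54, unadjusted p 0.0317), but not within the higher code series (-0.24, unadjusted p 0.570). The chains of type I collagen, the main collagen of the meninges, differed by less than the spread between rats. Col1a1 had means of 60.8 ± 26.0 in young and 55.4 ± 18.5 in aged rats (log2 fold change -0.11, SE 0.30). Col1a2 had means of 75.1 ± 62.5 and 57.1 ± 26.3 (log2 fold change -0.20, SE 0.49), with its highest signal, 192, in young rat 4. A second Col1a2 probe set gave -1.05 (unadjusted p 0.0370), so the size of the Col1a2 difference depended on the probe set.

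Among the basement membrane collagens 7 of 8 were tested, of which 5 were higher and 2 lower, with a median of 0.25. The gene with the smallest p of all the matrix genes was in this group. Col4a5 encodes a chain of the type IV collagen network that also includes Col4a6 and is known for its loss in Alport syndrome of the kidney. Young rats had signals between 178 and 266 (median 237), and aged rats had signals between 119 and 183 (median 162). In 4 of 6 aged rats the signal was below that of every young rat. Means were 230 ± 30.2 and 158 ± 24.1, a 1.46-fold higher signal in the young group. On the log2 scale the change was -0.54 (SE 0.12), with an unadjusted p of 0.000817 and an adjusted p of 0.189 (limma). The value was -0.56 (unadjusted p 0.00192) within the lower series of sample codes and -0.57 (unadjusted p 0.0794) within the higher series. Col4a6, its neighbour on the X chromosome in the rat assembly GRCr8 with 1 gene between them, was above the cutoff in 1 young and 1 aged rat on its representative probe set, which was not tested. A second Col4a6 probe set, with means of 9.01 and 19.7, gave 0.94 (SE 0.60, unadjusted p 0.145).

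The common type IV chains of vascular basement membranes, Col4a1 and Col4a2, did not pass an unadjusted p of 0.05. Col4a1 had means of 190 ± 27.6 in young and 200 ± 43.3 in aged rats (log2 fold change 0.06, SE 0.14), and its second probe set gave -0.22 (unadjusted p 0.152), the opposite sign. Col4a2 had means of 190 ± 69.6 and 173 ± 67.1 (log2 fold change -0.14, SE 0.29). These standard errors leave room for differences of moderate size in either direction. Col4a4 exceeded the cutoff in 2 young and 3 aged rats only, and its log2 fold change of 0.82 had a standard error of 0.68. Col15a1 and Col18a1, which carry both collagen and heparan sulfate or chondroitin sulfate chains in vascular basement membranes, had log2 fold changes of 0.25 (unadjusted p 0.303) and 0.27 (unadjusted p 0.323). The second Col18a1 probe set gave -0.23 (SE 0.55), the opposite sign.

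Col4a1 and Col4a2 lie head to head and are read in opposite directions from 1 short shared stretch. It is printed here because their chains join in 1 protein and their signals are set against each other across the rats. The stretch between the start sites comprises 76 bases at chr16:84885521-84885596 on the plus strand of GRCr8, from the RefSeq promoter sequences, which held 73 of the 102 matrix genes. The array values have no genome build of their own.
Col4a2 to Col4a1: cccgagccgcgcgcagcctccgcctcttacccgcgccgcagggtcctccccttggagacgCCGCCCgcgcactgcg
The capitals mark 1 match, on the minus strand, to GGGCGG, the core letters bound by SP family factors, which 18.1% of 33469 promoter stretches of the same length hold on either strand. Neither CCAAT (in 13.0% of them) nor TATAAA (in 4.60%) was found in these 76 bases on either strand. GC content was 78.9%, against a median of 53.9% for the promoter stretches.

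Signals of Col4a1 and Col4a2 moved together more closely across rats than those of 5 other pairs of genes whose proteins are joined or bound, as r values, without a test of the difference. Over all 12 rats Pearson's r was 0.64 (permutation p 0.0268, adjusted over 6 pairs 0.161) and Spearman's rho 0.71 (permutation p 0.0119, adjusted 0.0715). Young rat 6 and aged rat 6 were among the highest for both genes, and aged rat 3 had the highest Col4a1 signal. Without the 2 rats farthest from the Col4a1 median, aged rat 3 and young rat 6, r was 0.67 (permutation p 0.0337). It was 0.78 within the young rats (exact permutation p 0.0833), 0.61 within the aged rats (exact permutation p 0.218) and 0.62 within the 7 rats of the lower code series (permutation p 0.136). The higher series, with 5 rats, was too small for a value. After adjustment over the 6 pairs the relation was not past 0.05.

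The 5 remaining pairs had r between -0.07 and 0.41. Col1a1 and Col1a2, whose chains join in type I collagen, gave r = 0.27 (permutation p 0.398) and rho = 0.04 (permutation p 0.905), and without young rat 4 and aged rat 1 r was -0.03. Col1a1 and Col3a1 gave r = 0.41 (permutation p 0.192) and rho = 0.42 (permutation p 0.178), and without the same 2 rats r was -0.11. Within the young rats r was 0.26 (exact permutation p 0.604), and within the aged rats 0.81 (exact permutation p 0.0514). Col6a1 and Col6a2 of type VI collagen gave r = -0.07 (permutation p 0.820) and rho = 0.10 (permutation p 0.751), and r = -0.11 without 2 rats. For the laminin and nidogen pairs the slopes in the 2 age groups were opposite in sign. Lamb1 and Lamc1 gave r = -0.06 over all rats (permutation p 0.847, rho -0.05 with permutation p 0.886), -0.58 without aged rats 4 and 1, -0.91 within the young rats (exact permutation p 0.00278) and 0.73 within the aged rats (exact permutation p 0.106). Nid1 and Lamc1 gave r = 0.00 (permutation p 0.990, rho 0.17 with permutation p 0.589), -0.29 without aged rats 2 and 6, -0.82 within the young rats (exact permutation p 0.0306) and 0.85 within the aged rats (exact permutation p 0.0431). Each within-age value rests on 6 rats, and young rats 1 and 2 had the highest Lamc1 signals, at 629 and 627 beside 489 to 523 in the other young rats. The within-age p-values were not adjusted for the number of pairs, and the difference between the age groups was not tested.

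**Figure D2:**
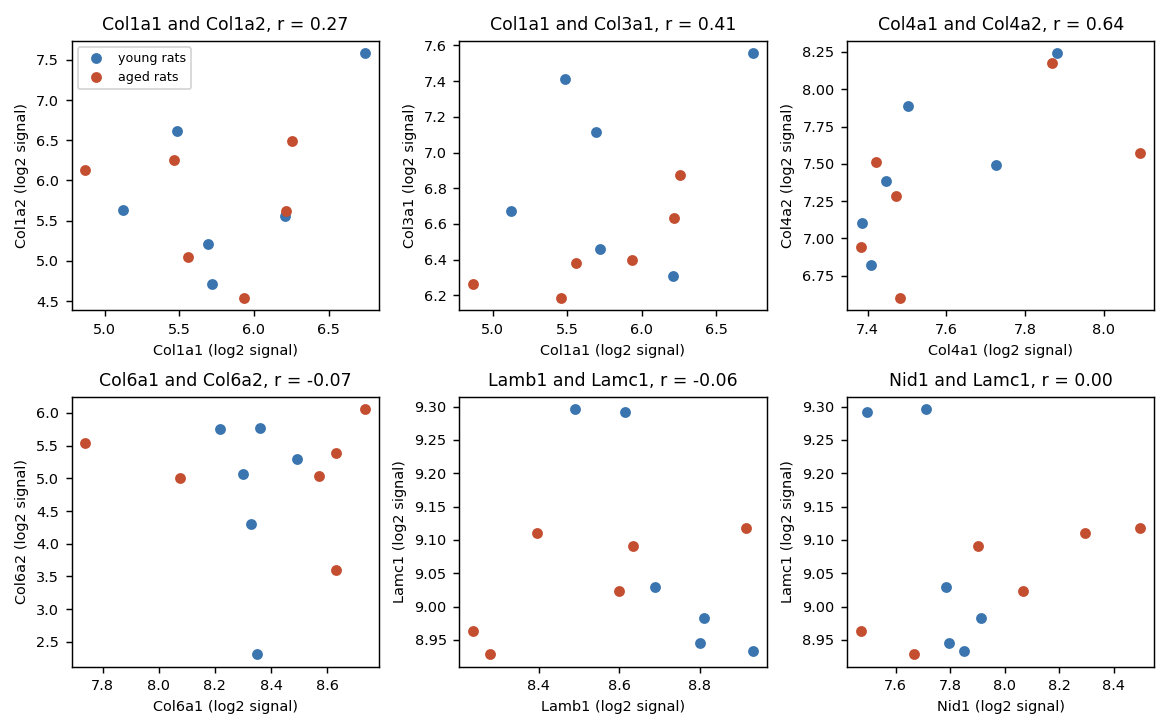
Log2 signals of 6 pairs of genes whose products form 1 protein or 1 network, with 1 point per rat (blue young, red aged) and Pearson's r over the 12 rats above each panel. Points rise together for Col4a1 and Col4a2 (r = 0.64), whereas Lamc1 runs downward with Lamb1 and Nid1 in the young rats and upward in the aged rats.

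The 21 other collagens tested comprised network, beaded, fibril-associated and transmembrane types. Higher means in the aged group were found for 16 of them and lower means for 5, with a median of 0.12, and 1 passed an unadjusted p of 0.05, beside 9.11% of all genes. Under quantile normalization 13 were higher and 8 lower (median 0.02), and under median centring 12 and 9 (median 0.05). Col9a1, a chain of the fibril-associated type IX collagen, had signals of 74.8 to 110 in young rats (median 86.3) and 55.5 to 98.6 in aged rats (median 67.8). Although 4 aged rats lay below all young rats, the groups overlapped. The log2 fold change was -0.32 (SE 0.14), with an unadjusted p of 0.0387 and an adjusted p of 0.521 (limma), and the unadjusted p was 0.0866 without aged rat 6. Col16a1, another fibril-associated collagen, had means of 413 ± 54.0 and 471 ± 47.5 (log2 fold change 0.19, unadjusted p 0.0684). With the code series as a block it was 0.23 (unadjusted p 0.0139). Some chains were close to the cutoff, among them Col8a1 of vessel walls, which exceeded it in 3 young and 5 aged rats and had a log2 fold change of 0.95 with a standard error of 0.71.

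All 13 genes for laminins, nidogens and perlecan were tested, of which 6 were higher and 7 lower, with a median of -0.04. The α chains Lama5 and Lama4, which are both found in endothelial basement membranes, lay at opposite ends. Lama5 had signals of 6.15 to 29.9 in young rats (median 21.2) and 28.9 to 51.6 in aged rats (median 42.7). All 6 aged rats but only 4 of 6 young rats were above the cutoff of 19.7, and 5 aged rats exceeded the highest young rat. Means were 20.6 ± 8.83 and 40.5 ± 8.97, with a log2 fold change of 1.11 (SE 0.35), an unadjusted p of 0.00777 and an adjusted p of 0.371 (limma). The signal was thus near the cutoff. The other probe sets for Lama5 were not above it often enough to be tested. Their young and aged means were 5.46 and 12.2 for 1 of them and 16.8 and 12.6 for the other, in opposite directions.

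Lama4 ran the other way. Its signal was 128 to 201 in young rats (median 152) and 79.9 to 163 in aged rats (median 121). In 4 aged rats it was below the lowest young rat. A log2 fold change of -0.40 (SE 0.16) was obtained, with an unadjusted p of 0.0285 and an adjusted p of 0.488 (limma). Within the higher code series it was -0.20 (unadjusted p 0.487), and the second probe set gave -0.08 (SE 0.65). The remaining laminin chains of vascular and parenchymal basement membranes did not pass an unadjusted p of 0.05. Lama2, the chain of astrocytic and muscle basement membranes whose loss causes a congenital muscular dystrophy, ran from 58.4 to 89.7 in young and from 46.4 to 91.1 in aged rats (log2 fold change -0.15). Lamb1 had means of 424 ± 45.9 and 370 ± 68.0 (log2 fold change -0.21, unadjusted p 0.102), Lamb2 of 146 ± 19.3 and 154 ± 33.0 (0.06), and Lamc1 of 544 ± 65.7 and 527 ± 29.1 (-0.04). Nid1, the linker of laminin to type IV collagen, had means of 218 ± 21.1 and 261 ± 68.8, with a log2 fold change of 0.23 (SE 0.16), but its second probe set gave -0.24, the opposite sign.

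Of the 11 matrix glycoproteins and small leucine-rich proteoglycans, 6 were higher and 5 lower, with a median of 0.01. Centred on array medians, 3 were higher and 8 lower. As fitted, 4 of the 11 had an unadjusted p up to 0.05, beside 9.11% of all genes. Emid1, listed singly in the symbol rule, is 1 of the 4, so this count is not independent of these data. Lum encodes lumican, a keratan sulfate proteoglycan that spaces collagen fibrils and is made by fibroblasts. Its signal spanned only 108 to 133 in young rats (median 126) and 33.8 to 109 in aged rats (median 78.9). In 5 of 6 aged rats it was lower than in any young rat, and the lowest value was that of aged rat 2. Means were 124 ± 9.11 and 78.2 ± 26.9, a 1.68-fold higher signal in the young group, or -0.75 (SE 0.24) as a log2 fold change, with an unadjusted p of 0.00836 and an adjusted p of 0.371 (limma). Without aged rats 2 and 6 it was -0.61 (unadjusted p 0.000319). Dcn, encoding the related proteoglycan decorin, is the gene next to Lum on chromosome 7 of GRCr8. It had means of 278 ± 97.5 and 222 ± 69.2, with a log2 fold change of -0.32 (SE 0.27, unadjusted p 0.250), and Bgn, encoding biglycan, was at 165 ± 21.0 and 170 ± 40.5 (0.01).

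Emid1 encodes an EMI domain protein with collagen-like repeats. Young signals ran from 247 to 340 (median 301) and aged signals from 213 to 275 (median 225). In 5 aged rats the signal was below the lowest young rat. Means were 298 ± 30.3 and 234 ± 22.5, with a log2 fold change of -0.35 (SE 0.08), an unadjusted p of 0.00139 and an adjusted p of 0.219 (limma). Its value was -0.38 (unadjusted p 0.0172) within the lower code series and -0.30 (unadjusted p 0.0959) within the higher. Fbln2, encoding fibulin-2 of basement membranes and elastic fibres, was at 250 to 398 in young rats (median 301) and at 178 to 313 in aged rats (median 236). The log2 fold change was -0.36 (SE 0.15, unadjusted p 0.0315, limma), with an unadjusted p of 0.112 within the lower and 0.245 within the higher code series. Emilin2, an elastin-associated EMI domain protein, was at 37.0 to 79.1 in young rats (median 69.0) and at 66.1 to 143 in aged rats (median 84.9). It had a log2 fold change of 0.51 (SE 0.23, unadjusted p 0.0473, limma), which was 0.26 (unadjusted p 0.250) without aged rats 2 and 6. Fibronectin, encoded by Fn1, differed little, with 599 ± 59.8 and 613 ± 55.2 (log2 fold change 0.03, SE 0.08). Sparc, encoding a collagen-binding protein of endothelium and glia, had means of 1709 ± 349 and 1872 ± 404 (log2 fold change 0.13, SE 0.16).

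**Figure D3:**
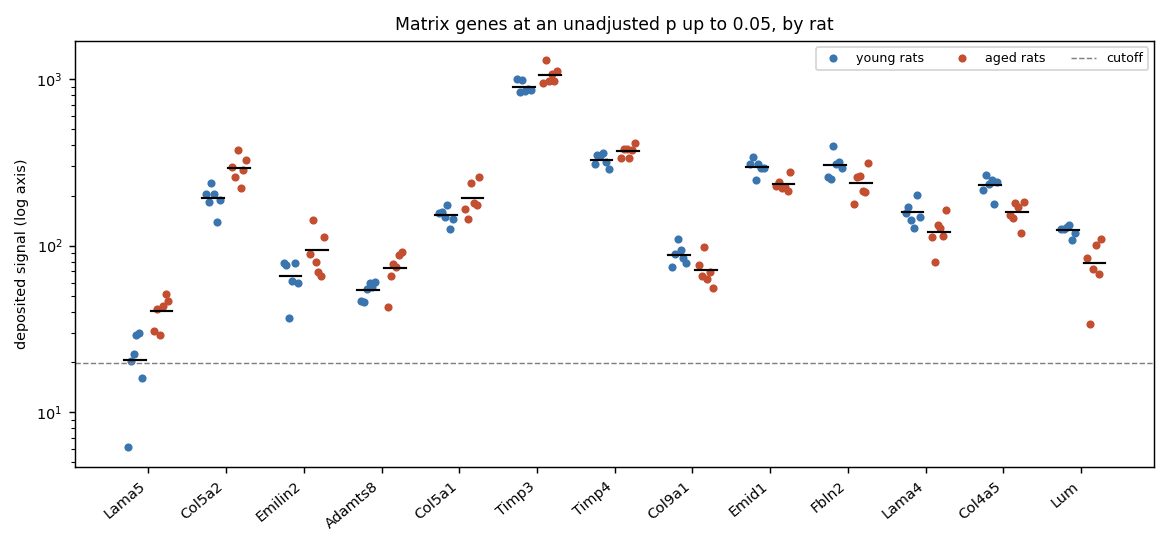
Signal in every rat, on a log axis, of the 13 matrix genes with an unadjusted p up to 0.05, ordered from the largest log2 fold change at the left to the smallest at the right. Blue points are the 6 young and red points the 6 aged rats, black bars are group means, and the dashed line is the cutoff of 19.7. Every gene shows some overlap of the ages, Lama5 lies nearest the cutoff, and heights of different genes cannot be compared because each probe set responds differently.

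No matrix metalloproteinase passed an unadjusted p of 0.05 as tested. Of 17 on the array 14 were tested, 5 higher and 9 lower in aged cortex, with a median of -0.02. Mmp2 and Mmp9 encode the gelatinases, which digest type IV collagen. Mmp9 was at 72.8 to 258 in young rats (median 120) and at 33.3 to 135 in aged rats (median 101), with a log2 fold change of -0.59 (SE 0.37, unadjusted p 0.135). Mmp2 was at 82.1 to 127 in young rats (median 99.2) and at 48.3 to 201 in aged rats (median 89.4), with a log2 fold change of -0.02 (SE 0.30). The aged rats thus spread beyond the young rats at both ends for Mmp2. Its second probe set gave 0.69 (unadjusted p 0.0326), and within the higher code series the first gave 0.65 (unadjusted p 0.00898). Mmp14, encoding the membrane-bound activator of the Mmp2 protein, was at 176 ± 43.3 and 165 ± 68.9 (log2 fold change -0.15, SE 0.26), but its second probe set gave 0.40 (SE 0.35), the opposite sign. The metalloproteinases with the smallest p were close to the cutoff. Mmp11 exceeded it in 3 aged rats and in none of the young, whose signals were 5.15 to 17.5, while those of the aged rats were 6.82 to 43.1 (unadjusted p 0.0712). With the code series as a block its unadjusted p was 0.0358. Mmp19 exceeded it in 2 young rats and 1 aged rat (unadjusted p 0.0715).

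Of the 12 ADAMTS proteases, some of which cut the lecticans of the brain matrix, 8 were higher and 4 lower, with a median of 0.09, and under quantile normalization 6 were higher and 6 lower. Adamts8 was at 45.8 to 60.9 in young rats (median 55.8) and at 42.7 to 91.7 in aged rats (median 75.7). While 5 aged rats exceeded all young rats, the other was below all of them. The log2 fold change was 0.41 (SE 0.17), with an unadjusted p of 0.0343 and an adjusted p of 0.506 (limma), and without aged rat 6 it was 0.33 (unadjusted p 0.0774). Adamts1, a lectican-cutting member with anti-angiogenic activity, ran from 71.4 to 119 in young and from 91.2 to 179 in aged rats (log2 fold change 0.27, unadjusted p 0.164).

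The TIMP inhibitors were 3 higher and 1 lower, with a median of 0.15, and 2 had an unadjusted p up to 0.05, beside 9.11% of all genes. Timp3, which binds to the matrix itself and also blocks ADAM and ADAMTS proteases, was at 837 to 1002 in young rats (median 864) and at 948 to 1300 in aged rats (median 1024). The means, 901 ± 72.3 and 1063 ± 133, differed 1.18-fold, a log2 fold change of 0.23 (SE 0.09), with an unadjusted p of 0.0191 and an adjusted p of 0.458 (limma). Centred on array medians it was 0.16 (unadjusted p 0.119), and the unadjusted p was 0.218 within the lower code series, 0.0544 within the higher and 0.0789 without aged rats 2 and 6. The 3 other Timp3 probe sets gave 0.02, 0.16 and 0.18, each higher in the aged group and none with an unadjusted p up to 0.05, and their mean with the first gave 0.15 (unadjusted p 0.155). Timp4, the inhibitor abundant in heart and brain, was at 289 to 362 in young rats (median 332) and at 334 to 411 in aged rats (median 378). Its log2 fold change was 0.17 (SE 0.07, unadjusted p 0.0410, limma), and 0.14 (unadjusted p 0.0862) without aged rat 6. Timp2 had means of 2068 ± 193 and 2284 ± 349 (log2 fold change 0.13, unadjusted p 0.209), and its second probe set gave -0.06 (SE 0.13). Timp1, the inducible member, had means of 75.9 ± 31.6 and 57.4 ± 23.5 (log2 fold change -0.43, SE 0.32, unadjusted p 0.210).

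Of the 4 lysyl oxidases 2 were higher and 2 lower, with none at an unadjusted p up to 0.05. All 4 were at or below the cutoff in some rats. Loxl1, which cross-links elastin, was at 18.4 to 101 in young rats (median 81.7) and at 17.7 to 77.4 in aged rats (median 42.8), with a log2 fold change of -0.64 (SE 0.44, unadjusted p 0.174). Loxl2 had a log2 fold change of 0.33 (SE 0.27), with -0.05 (SE 0.62) on its second probe set, and Lox, the founding member, of 0.03 (SE 0.35).

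Agreement between probe sets of a gene was limited. More than 1 probe set was tested for 28 of the matrix genes, and in 16 of these all probe sets lay on the same side of 0, while in 12 they lay on both sides. Of the 13 genes with an unadjusted p up to 0.05, 4 had more than 1 probe set tested (Col5a1, Col5a2, Lama4 and Timp3), and all of these kept 1 sign. Among these 4 genes, only the type V chains had a second probe set that passed an unadjusted p of 0.05.

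**Figure D4:**
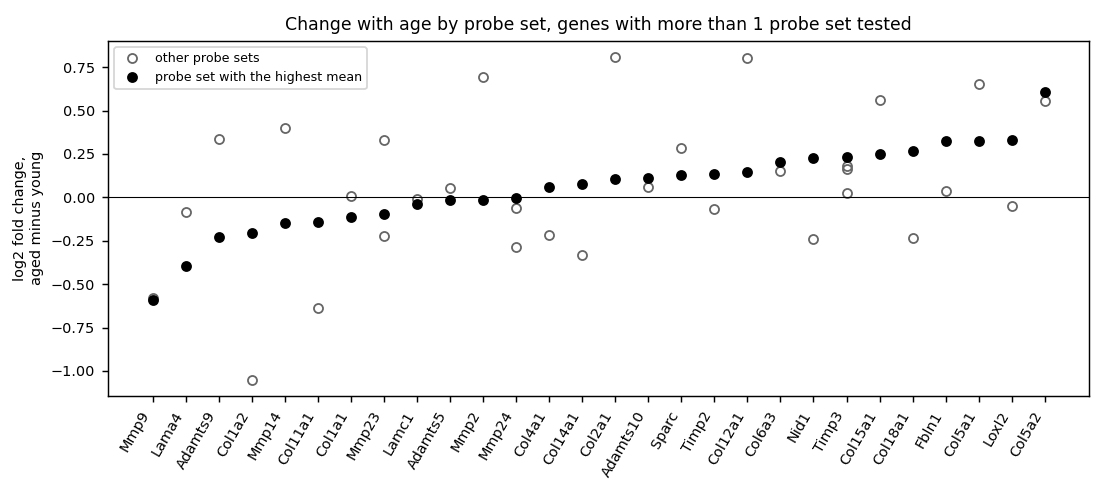
Log2 fold change, aged minus young, for the 28 matrix genes with more than 1 probe set tested, ordered by the value of the probe set with the highest mean (filled), with other probe sets of the gene as open circles. Both Col5a2 points lie together at 0.55 and 0.61, whereas 12 of the 28 genes have points on both sides of 0.

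Several matrix genes lie side by side in the rat genome. On GRCr8, 20 of the 102 are adjacent to another, in 10 pairs, of which 8 had both genes tested, and in 3 of these 8 both genes had the same sign of difference. Col3a1 and Col5a2 are neighbours on chromosome 9 with the most opposed values of any such pair, -0.47 and 0.61. Dcn and Lum on chromosome 7 were both lower in the aged group, at -0.32 and -0.75. Adamts15 and Adamts8 on chromosome 8 were at 0.00 and 0.41.

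Matrix genes varied more between rats of the same age than did genes in general. The median within-group standard deviation on the log2 scale was 0.42 for the 97 matrix genes and 0.20 for all genes tested. Much of the difference went with signal strength, since 57 of the 97 were in the dimmest of 4 equal bins of all genes by mean signal, where the medians were 0.54 for matrix genes and 0.62 for all genes. In the second bin, with 26 matrix genes, they were 0.29 and 0.22. Of the 13 genes with an unadjusted p up to 0.05, 5 were in the dimmest bin, where 11.1% of all genes passed. The second bin held 7, where 10.8% of all genes passed. The third held 1 among 10 matrix genes (8.06% of all genes) and the brightest 0 among 4 (6.49%).

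Aged rat 6 had the highest signal of the aged rats for 42 of the 97 matrix genes (43.3%), and for 27.1% of all genes. Its median deviation from the aged mean was 0.31 on the log2 scale for the matrix genes and 0.05 for all genes, whereas the medians of the other aged rats were between -0.08 and 0.03 for the matrix genes. At the same trimmed mean, the median signal of its array was 194.3, against 161.6 to 177.2 on the other arrays. The share of probe sets above the cutoff was 87.1%, against 83.3% to 85.9%. Matrix genes were dimmer than genes in general, so all genes are not a like comparison. The part of the signal level of this array was not tested. The ADAMTS proteases had the largest share, with 8 of 12 genes highest in that rat. The summed signal of 13 microglial markers was 11234 in aged rat 6, while the other aged rats had 5978 to 7175 and the young rats 5255 to 6894. The summed signal of 16 endothelial markers was also highest there, at 10990. The part of either cell type in the matrix values of that rat was not tested.

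**Figure D5:**
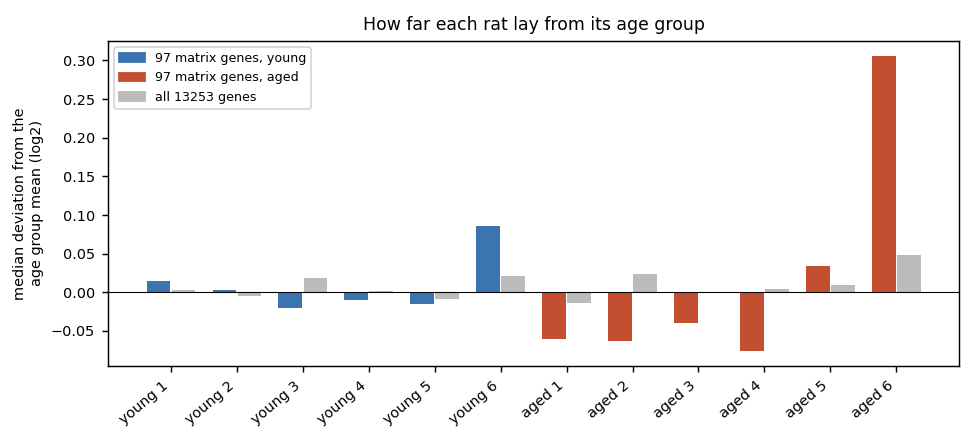
Median deviation of each rat from the mean of its age group, on the log2 scale, over the 97 matrix genes (blue young, red aged) and over all 13253 genes tested (grey). Aged rat 6 stands at 0.31 for the matrix genes and at 0.05 for all genes, and the other 11 rats lie between -0.08 and 0.09 for the matrix genes.

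Markers of the cells that make matrix were looked at beside these results. Over all 13253 genes tested, 7545 had a higher and 5708 a lower mean in the aged group, and 9.11% had an unadjusted p up to 0.05 (limma). Of 16 endothelial markers 15 were higher in aged cortex, 4 of them at an unadjusted p up to 0.05, with summed signals of 7538 to 9636 in young and 8503 to 10990 in aged rats. Mural cell markers were divided, 8 higher and 5 lower of 13 tested, with sums of 1603 to 2003 and 1756 to 2048 over 14 genes. Of 18 markers of meninges and fibroblasts 16 were higher and 1 passed an unadjusted p of 0.05, while under quantile normalization and under median centring 12 were higher and 6 lower. Matrix genes that fibroblasts express went both ways. Lum had a lower mean. Of the 11 fibrillar collagens 5 were higher, Col5a2 and Col5a1 among them, and 6 lower, Col3a1 among them. The sums over 19 genes were 5419 to 13456 in young and 6408 to 13850 in aged rats, and without Ptgds 3027 to 4226 and 3210 to 4191. Choroid plexus markers gave sums of 1785 to 3817 and 1914 to 3071. Blood cell markers gave 6364 to 11095 and 8142 to 11829, of which S100a9, from neutrophils, was higher in every aged rat than in any young rat (log2 fold change 1.60, adjusted p 0.105, limma). Astrocyte markers gave 53217 to 65515 and 55779 to 68287, and oligodendrocyte markers, all 11 with higher means in the aged group (10 of 11 under median centring), 34578 to 50936 and 35903 to 59431. Of 13 microglial markers 12 were higher, and of 13 neuronal markers 10 were lower, while the summed signals of both overlapped between the ages. Oligodendrocyte progenitor markers gave 3277 to 4222 and 3562 to 4858. In each of these lists the ranges of the ages overlapped, and 1 marker, Cd79b of B cells, was at or below the cutoff in all rats. The part of these cell types in the matrix values was not tested.

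Genes that act with the matrix but were outside the 102 were described from 6 lists. None of them passed an adjusted p of 0.05 (limma). The shares over all genes are the same as for the markers, 7545 of 13253 higher and 9.11% at an unadjusted p up to 0.05. Matrix receptors had 11 genes higher and 7 lower of 18 tested, with 4 at an unadjusted p up to 0.05, all higher. Itgb5, an integrin chain that binds vitronectin, had means of 431 ± 31.2 in young and 560 ± 56.0 in aged rats, with all 6 aged rats above the young (log2 fold change 0.38, unadjusted p 0.000394, adjusted p 0.159, limma). Ddr1, a collagen receptor kinase of oligodendrocytes, had a log2 fold change of 0.38 (unadjusted p 0.0102).

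In the lists of proteolysis and matrix relatives most genes had higher means in the aged group. Among 13 genes of the plasmin system and the ADAM proteases 11 were higher and 2 lower, with 1 at an unadjusted p up to 0.05. This was Reck, encoding a membrane-anchored inhibitor of metalloproteinases (535 ± 36.2 and 648 ± 61.0, log2 fold change 0.27, unadjusted p 0.00279). Plau, encoding urokinase, had a log2 fold change of 0.73 (unadjusted p 0.0577). All 5 relatives of Sparc were higher (4 of 5 with arrays centred on their medians), with Smoc1 at 0.32 (unadjusted p 0.0276) and Spock1 at 0.23 (unadjusted p 0.0444).

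The other lists were more divided. Elastic fibre and latent TGF-beta genes were 10 higher and 6 lower of 16, and at an unadjusted p up to 0.05 there were 2 higher genes and 1 lower. The smallest p values belonged to Ccn2 at 0.25 and Tgfbr1 at 0.31. The hyaluronan and lectican matrix, which forms the perineuronal nets, had 6 higher and 6 lower of 12. Hapln2, a link protein of nodes of Ranvier, was at 389 ± 127 in young and 666 ± 222 in aged rats (log2 fold change 0.77, unadjusted p 0.00922), and Hapln1, the link protein of perineuronal nets, was at -0.26 (unadjusted p 0.0827). Of 16 genes for collagen folding and processing 10 were higher and 6 lower and none had an unadjusted p up to 0.05, with Colgalt2 at 0.20 (unadjusted p 0.0661) and P3h1 at 0.16 (unadjusted p 0.102) having the smallest.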

How the data were processed

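RNA of 12 rats was hybridised singly. For each array, linear intensities of all probe sets were deposited by the authors. Their notes list GCRMA, MAS5 and R 2.7.1. By the methods the deposited intensities are gcRMA signals, and a scaling to a fixed target is also described. What MAS5 was used for, and in which order the steps ran, is not given in the sources used here. Planning had allowed for values that might already be on a log2 scale. As the intensities were linear, their log2 was taken without a pseudocount or further normalization. Background adjustment can compress or spread low values. Intensities come from hybridisation, so no read depth exists and the 6 arrays per group limit the precision. Whether the rats came from separate litters is not given.

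Symbols came from the platform annotation, updated by gene ID, found for 20764 probe sets. Of the probe sets, 20832 had 1 symbol, 436 several and 9831 none, and only the first kind was used. Aged and young rats were compared in a two-sided moderated test (lmFit, eBayes; limma 3.58.1, R 4.3.3) with p-values adjusted by Benjamini-Hochberg for the 13253 genes above 4.3 on the log2 scale on at least 3 arrays. Probe sets beyond the representative one were fitted over all 28193 tested. Correlations used permutation tests in SciPy 1.17.1 with 100000 resamples, or all 720 pairings within an age group. The steps were tested on simulated data.

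The matrix genes, the lists and the alternatives were chosen with earlier results of these data known. Named were genes with an unadjusted p up to 0.05, the 2 with the smallest p in each role, a set of well known matrix genes, and the 2 with the smallest p in each further list. Genes named as partner chains, or for probe set position, signal near the cutoff or genome neighbourhood (Col5a3, Col15a1, Col18a1, Col8a1, Col4a6, Adamts15) were added after their values were seen. As alternatives, arrays were normalized by quantiles or centred on their medians, and further settings were no filter, a filter at 5.5, a pseudocount of 16, averaged probe sets, every probe set alone, robust variances with an intensity trend, weights per array, the methods' t-test, the subject number and the code series as blocks, each code series alone and each rat left out.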

Additional observations from a re-analysis of the deposited data

Results flagged for a closer look

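Of 80 groups of 6 rats looked at for a rat far from the rest, over the named matrix genes, 3 stood out, where chance gives about 1 in 20. Emilin2 was low in young rat 3, at a signal of 37.0, while the other young rats had 60.1 to 79.1. Loxl1 was low in young rat 2, at 18.4, below the cutoff of 19.7, while the others had 53.4 to 101. Timp2 was high in young rat 3, at 2439, while the others had 1877 to 2066.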

How the results depend on the processing

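No matrix gene passed an adjusted p of 0.05 (limma) under any alternative run. Higher genes at an unadjusted p up to 0.01, 2 as reported, were 1 under quantile normalization, median centring, the filter at 5.5, the intensity trend with robust variances, the methods' t-test, within the lower code series, and without aged rats 2 and 6. Shares of all genes at p up to 0.01 are not given for the alternatives. Counts at that threshold are therefore not read as a result about the matrix genes. Genes higher at an unadjusted p up to 0.05, 7 as reported, were 3 under quantile normalization (4.44% of all genes) and 2 under median centring (3.12%). Those lower at this threshold were 9 (3.55%) and 8 (6.67%). Lower genes at an unadjusted p up to 0.01, 3 as reported, were 5 under median centring, 1 within the lower and 0 within the higher code series. At p up to 0.05, 3 genes were lower within the higher series, beside 1.62% of all genes. They were Col9a1, Lamb1 and Loxl1, of which only Col9a1 was among the 6 as reported. The median log2 fold change, 0.03 as reported, was -0.049 under quantile normalization, -0.036 under median centring, -0.032 within the lower and 0.14 within the higher series, where Mmp2 was at 0.65. At an unadjusted p up to 0.05 over all genes, 860 had higher and 347 lower levels as reported, 589 and 471 under quantile normalization and 414 and 884 under median centring, so the balance of directions depends on the scaling. Leaving out 1 rat at a time gave 0 to 0 genes at an adjusted p under 0.05, and 1 to 3 higher and 2 to 5 lower genes at p up to 0.01. At p up to 0.05 it gave 3 to 10 higher and 4 to 7 lower genes, beside 5.01% to 7.98% and 2.02% to 3.38% of all genes. Medians were 0.02 to 0.07. The count of higher genes at p up to 0.05 was 3 without aged rat 3 (6.54% of all genes) and 3 without aged rat 6 (5.01%). That at p up to 0.01 was 1 without young rat 2, 3 or 6 or aged rat 4, 5 or 6. Lower genes at p up to 0.01 were 5 without aged rat 6.

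Of the 13 named genes at p up to 0.05 none changed sign. Lama5, the gene nearest the cutoff, was not tested under the stricter signal filter or with averaged probe sets. It kept the threshold of p up to 0.05 in the 24 of 26 alternatives that tested it. Col4a5, Emid1 and Lum lost it only within the higher series and Col5a2 only within the lower series (0.45, unadjusted p 0.0582). Of the 27 other named genes, 12 changed sign somewhere. The 6 correlations kept their side of 0.05 under quantile normalization and centring by age.

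Whether subjects of the same number in the 2 groups share more than that number is not given. Their deviations correlated at 0.16, -0.04, 0.122, 0.114, 0.098 and 0.154 for numbers 1 to 6. Whether these values depart from 0 was not tested. With the number as a replicate block, 3 higher and 2 lower genes had p up to 0.01, for which the share of all genes under the block is not given. At p up to 0.05 there were 7 and 5, beside 8.23% and 3.08% of all genes (6.49% and 2.62% as reported). No matrix gene had an adjusted p under 0.05, and the median was 0.03. Under this block Col5a1, Lama4, Timp3 and Timp4 were not at p up to 0.05 (0.0633, 0.0646, 0.0602 and 0.0827), whereas Col16a1 and Mmp11 were (0.0158 and 0.0120). Mmp11 exceeded the cutoff in 3 aged rats and 0 young rats, so it entered the test only through the group where it was higher. Its p is therefore no support for a difference. The cause of the shifts under the block was not tested, and dim probe sets limit the precision of most matrix genes.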
